A study of Mus musculus with 6 samples.

Results

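The 10 genes described here are the transcription factors and repressors of the circadian clock and a pair of its direct output factors, measured in mouse hepatocytes sorted by expression of the telomerase gene Tert. They are Arntl, Clock, Npas2, Per1, Per2, Per3, Cry1, Cry2, Dbp and Tef, taken by gene symbol from a count table of 15565 genes, and all 10 were in the table and passed the filter on low counts. Hepatocytes came from 3 C57BL/6 mice aged 2 months. In all groups the mice carried the alleles Tert(CreERT2/+) and R26(LSL-Tomato/+), in which an inducible Cre recombinase stands at 1 copy of the Tert gene and a red fluorescent reporter waits behind a stop cassette. Livers were perfused with collagenase, the hepatocytes were sorted, and polyadenylated RNA of the sorted cells was sequenced as bulk libraries. TERT(High) hepatocytes (3 libraries) were compared with TERT(Low) hepatocytes (3 libraries), and both populations were taken from each mouse. The hour at which each liver was perfused is not given in the sources used here, nor is the feeding state of the mice.

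The clock of a mammalian cell is a feedback loop of transcription. ARNTL (also called BMAL1) pairs with CLOCK, or with its relative NPAS2, and the pair switches on genes that carry an E-box, among them the Per and Cry genes, whose proteins return to the nucleus and silence the pair. A further loop runs through the nuclear receptors REV-ERB and ROR, which repress and activate Arntl at a ROR response element, and a set of output factors of the PAR bZIP family, DBP and TEF among them, passes the rhythm on through D-boxes. In mouse liver most of these transcripts cycle over the day, with Arntl and Npas2 near their peak when Dbp is near its trough, and Cry1 peaks later than the Per genes.

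Library totals were 53585174 to 64065266 counts for TERT(High) and 55355819 to 76164917 counts for TERT(Low). In mice 1, 2 and 3 Tert itself had 38, 33 and 30 counts in TERT(High), against 21, 21 and 12 counts in TERT(Low), so the labels matched its direction in all 3 mice (log2 fold change 0.87, SE 0.44, edgeR adjusted p = 0.249). The 8 hepatocyte markers summed to between 124609 and 140677 CPM (counts scaled to a common library size, with TMM factors) for TERT(High) and between 112184 and 138027 CPM for TERT(Low). Alb made up the largest part of these sums, with a log2 fold change of 0.41 (edgeR adjusted p = 0.240). Of the 8, 3 were lower in TERT(High) at an unadjusted edgeR p under 0.05 and 0 higher, where 1649 and 2164 of 13288 genes were. After adjustment 1 was lower and 0 higher, where 3.71% and 4.43% of all genes were. Of 6 endothelial markers, 5 were higher in TERT(High) at an unadjusted edgeR p under 0.05, where 16.3% of all genes were. After adjustment 2 (Kdr and Lyve1) were called higher, where 4.43% of all genes were. The endothelial markers summed to 23.7 to 45.0 CPM across TERT(High) and 17.5 to 19.1 CPM across TERT(Low). Of the most abundant endothelial markers, Clec4g had a log2 fold change of -0.08 (edgeR adjusted p = 0.833) and Stab2 1.83 (adjusted p = 0.0549). The 8 macrophage and Kupffer cell markers stood apart in mouse 3, at 84.4 CPM in its TERT(High) library and 39.7 CPM in its TERT(Low) library, against 14.6 and 15.7 CPM in the other TERT(High) libraries and 12.7 and 16.4 CPM in the other TERT(Low) libraries. Stellate cell and fibroblast markers summed to 138 CPM in the TERT(High) library of mouse 1 and to at most 9.18 CPM elsewhere, and Col1a1 alone had 127 CPM in that TERT(High) library. In such bulk libraries fewer cells of a type and less RNA per cell cannot be told apart.

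The elements through which the loop is known to run were looked for in the RefSeq promoters of these genes (build GRCm38.p6, 250 bases before to 50 bases after each annotated start), which cover 14 promoters of 9 of the 10 genes. Each motif was searched on both strands. An E-box, CACGTG, was found in 4 of the 14 promoters, those of Per1, Cry1 and Tef, against 7.15% of all 32851 promoters. The E-prime-box, CACGTT, was in 2 of the 14, of Cry1 and Cry2 (4.68% of all promoters). The D-box, TTATGNAA, was in 2 of the 14, of Per1 and Per3 (3.38%). A ROR response element was in 2 of the 14, both of Arntl (0.682%). It was searched with the 10 letters in capitals in the Arntl lines, the third and the ninth of them left free, a form chosen knowing the published Arntl element. The cAMP response element TGACGTCA was in none of the 14 (1.79%), and the windows of Clock, Npas2 and Dbp held none of the 5 motifs. The sites are shown because they place the genes on the loop whose values follow. Each is given 5′ to 3′ on the strand of its gene, in a window of 30 bases with the motif in capitals, and the E-prime-box reads AACGTG on that strand. The coordinates of a site are those of its whole window, and its distance is that of the first base of the motif from the start. The Arntl elements lie at chr7:113207492-113207521 and chr7:113207528-113207557 on the plus strand, with their first bases 9 bases before and 28 bases after a start. The Per1 E-box lies at chr11:69098771-69098800 and its D-box at chr11:69098914-69098943, plus strand, 166 and 24 bases before the start. The Cry1 E-box lies at chr10:85185097-85185126 on the minus strand, 60 bases before the start, and the Cry2 E-prime-box at chr2:92434218-92434247 on the minus strand, 166 bases before it. The Per3 D-boxes lie at chr4:151044852-151044881 and chr4:151044805-151044834 on the minus strand, 205 and 158 bases before the start. Tef has an E-box before each of its annotated starts shown, at chr15:81802534-81802563 and chr15:81811264-81811293 on the plus strand, 127 and 138 bases before them.
Arntl upstream ROR element: attggtcggaAAGTAGGTTAgtggtgcgac
Arntl downstream ROR element: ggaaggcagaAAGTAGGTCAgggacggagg
Per1 E-box: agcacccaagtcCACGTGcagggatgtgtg
Per1 D-box: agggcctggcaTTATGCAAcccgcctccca
Cry1 E-box: ggtgccggtggtCACGTGgggtgcatgccg
Cry2 E-prime-box: acacatggtgggAACGTGagggggcggagc
Per3 upstream D-box: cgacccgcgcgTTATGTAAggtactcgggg
Per3 downstream D-box: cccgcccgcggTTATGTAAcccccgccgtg
Tef upstream E-box: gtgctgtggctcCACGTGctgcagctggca
Tef downstream E-box: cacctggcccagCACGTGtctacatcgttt
A match is a description of these letters in this window, and binding was not measured.

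To ask whether the clock genes differed between the sorted populations, TERT(High) was compared with TERT(Low) by edgeR's quasi-likelihood test across 13288 genes. None of the 10 clock genes passed an adjusted p of 0.05, where 8.14% of all genes did (588 or 4.43% higher, 493 or 3.71% lower). That balance depended on the scaling, with 628 higher and 19 lower for library totals alone, 542 higher and 712 lower for upper-quartile scaling, and 444 higher and 105 lower with the mouse as a block and a length and GC correction. At an unadjusted p below 0.05 in this fit on group alone, only Clock and Per2 stood out, 2 of 10 and both higher. Over all genes 16.3% were higher and 28.7% differed in either direction. DESeq2 and limma-voom each called the same 2 genes higher. In either direction DESeq2 called 23.7% of the 11724 genes it gave an adjusted p, and limma-voom 18.6% of 13288. The same 2 were called by edgeR with a stricter filter of at least 5 CPM, which tested 8 of the 10 and called 20.1% of 7463 genes. They were also called by edgeR at an adjusted p under 0.1 (19.3% of 13288 genes). With the mouse as a block edgeR called 0 of the 10, against 9.72% of all genes, and 0 again with the block and a correction for transcript length and GC content (4.13%). All TERT(High) libraries stood above all TERT(Low) libraries for Clock, Per2 and Per3 (3 of 10, against 17.5% of all genes), and for none was the reverse true (15.9% of all genes). Within each mouse TERT(High) was above TERT(Low) for 6 of 10 in all 3 mice (28.2% of all genes), namely Arntl, Clock, Per1, Per2, Per3 and Cry2, and below it in all 3 mice for 0 of 10 (27.6%). The median log2 fold change of the 10 genes was 0.22, and that of all genes tested was -0.01. The count over all genes rested on the libraries used: it was 1650 without the TERT(High) library of mouse 1 and 0 without any 1 of the other 5 libraries, while the clock gene count was 0 in each of these fits.

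**Figure D1:**
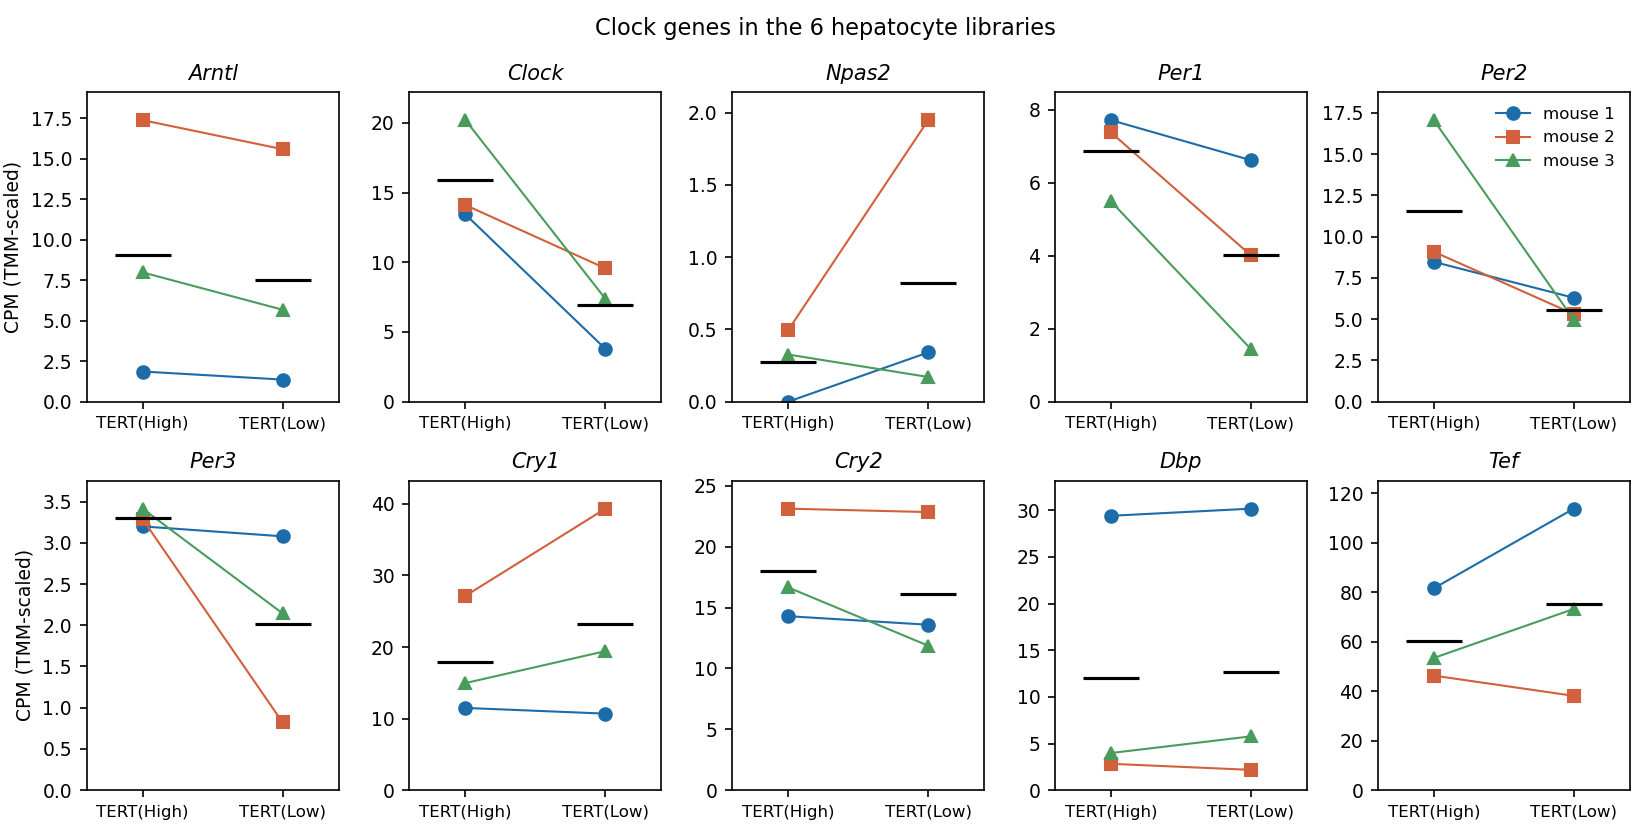
Level of each of the 10 clock genes in every library, in TMM-scaled CPM on a linear axis from 0, with TERT(High) on the left and TERT(Low) on the right of each panel. Each line joins the libraries of 1 mouse and the black bar is the mean of 3 libraries; for Arntl and Dbp the lines of the mice lie far apart and nearly flat, and for Clock and Per2 all lines run down to the right.

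Arntl, the partner without which the activator complex does not form, differed far more between mice than between populations. In mice 1, 2 and 3 it had 1.86, 17.4 and 7.98 CPM in TERT(High), against 1.36, 15.6 and 5.67 CPM in TERT(Low) (114, 1052 and 465 counts in TERT(High), against 100, 816 and 299 counts in TERT(Low)). In both populations mouse 1 was lowest, mouse 2 highest and mouse 3 between them, and within every mouse the TERT(High) value was the higher. TERT(High) averaged 9.07 ± 7.81 CPM and TERT(Low) 7.54 ± 7.29 CPM (SD, n = 3 each), a log2 fold change of 0.27 (SE 0.99, edgeR adjusted p = 0.882). Its sign turned without the TERT(High) library of mouse 2 (-0.64) and without the TERT(Low) library of mouse 1 (-0.23), and it was larger without the TERT(Low) library of mouse 2 (1.38) and with limma-voom (1.15), with no call in any of these fits. The gene lies at chr7:113178471-113314126.

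Clock, the histone acetyltransferase and DNA-binding partner of ARNTL, showed the larger difference between populations of the 2 genes under an unadjusted p of 0.05 with group alone. Its levels were 13.4, 14.1 and 20.2 CPM in TERT(High), against 3.79, 9.57 and 7.38 CPM in TERT(Low), in the order of mice 1, 2 and 3. The groups did not overlap, and the lowest library was the TERT(Low) library of mouse 1. TERT(High) averaged 15.9 ± 3.73 CPM and TERT(Low) 6.91 ± 2.92 CPM, a log2 fold change of 1.20 (SE 0.36), with an edgeR p of 0.0130 and an adjusted p of 0.0828. DESeq2 gave an adjusted p of 0.0120 and limma-voom 0.0277. Clock has a long transcript of 9744 nt, where the median of the tested genes was 2957 nt, and with trends on transcript length and GC content taken out edgeR gave 0.29 (SE 0.43, adjusted p = 0.772), in a fit that called 0% of all genes. The gene lies at chr5:76209868-76305603.

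Npas2, a relative of Clock that can take its place beside ARNTL, was close to the floor of these libraries. It had 0, 30 and 19 counts in TERT(High), against 25, 102 and 9 counts in TERT(Low). In CPM that was 0, 0.495 and 0.326 in TERT(High), against 0.341, 1.95 and 0.171 in TERT(Low). The highest library was the TERT(Low) library of mouse 2, and a count of 0 in the TERT(High) library of mouse 1 allows up to 3 counts, or 0.0490 CPM, by counting error alone. The groups overlapped, and the log2 fold change was -1.57 with an SE of 1.42 (adjusted p = 0.526), or 0.10 without the TERT(Low) library of mouse 2. The gene lies at chr1:39193702-39363240.

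The 3 Per genes, whose proteins join the CRY proteins in the repressor complex, all had higher means in TERT(High). Per1, which is also an immediate early gene that glucocorticoids and cAMP induce in many cells, had 7.72, 7.38 and 5.49 CPM in TERT(High), against 6.62, 4.01 and 1.44 CPM in TERT(Low). Mouse 1 was highest and mouse 3 lowest in both populations, and the groups overlapped because the TERT(Low) library of mouse 1 lay above the TERT(High) library of mouse 3. TERT(High) averaged 6.86 ± 1.20 CPM and TERT(Low) 4.02 ± 2.59 CPM (SD, n = 3 each), with a log2 fold change of 0.77 (SE 0.51, edgeR adjusted p = 0.378). Per1 lies at chr11:69095108-69109965. In the same libraries 17 immediate early genes summed to 430, 383 and 277 CPM in TERT(High), against 499, 586 and 181 CPM in TERT(Low), with Jund and Zfp36 the most abundant tested (means of 94.8 and 53.4 CPM over all libraries). Of the 16 tested by edgeR between populations, 0 passed (8.14% of all genes did) and 0 had an unadjusted p under 0.05 (28.7%). The sum of the 17 was lowest in mouse 3 in both populations, as Per1 was. The part of these genes in the Per1 values was not tested.

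Per2, a repressor whose mutation disturbs the daily rhythm of mice, had 8.47, 9.08 and 17.1 CPM in TERT(High), against 6.29, 5.31 and 4.97 CPM in TERT(Low). The groups did not overlap, the TERT(Low) libraries were close together, and the TERT(High) library of mouse 3 stood above the rest. TERT(High) averaged 11.5 ± 4.79 CPM and TERT(Low) 5.52 ± 0.688 CPM, with a log2 fold change of 1.06 (SE 0.30), an edgeR p of 0.0108 and an adjusted p of 0.0755. Without the TERT(High) library of mouse 3 the log2 fold change was 0.67 (adjusted p = 0.191). DESeq2 gave an adjusted p of 0.0118 and limma-voom 0.0450, and the length and GC correction left a log2 fold change of 0.78 (SE 0.22, edgeR adjusted p = 0.169). Per2 lies at chr1:91415977-91459351.

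Per3, a relative of Per1 and Per2 that the mouse clock can largely do without, had 3.20, 3.29 and 3.41 CPM in TERT(High), against 3.08, 0.821 and 2.14 CPM in TERT(Low). The TERT(High) libraries were nearly level and the TERT(Low) libraries spread below them, lowest in mouse 2. They differed by a log2 fold change of 0.71 (SE 0.45, edgeR adjusted p = 0.355). Per3 lies at chr4:150997018-151044707. The 5 endothelial markers that were higher in TERT(High) also did not overlap between populations, nor did 17.5% of all genes in that direction. This was the case for Clock, Per2 and Per3 too, and the part of the markers in the values of these clock genes was not tested.

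The cryptochromes, which carry most of the repression of the CLOCK and ARNTL pair, followed the mouse more than the population. Cry1 had 11.5, 27.2 and 15.0 CPM in TERT(High), against 10.7, 39.3 and 19.4 CPM in TERT(Low). As with Arntl, mouse 1 was lowest and mouse 2 highest in both populations, and the groups overlapped (log2 fold change -0.37, SE 0.52, edgeR adjusted p = 0.677). The Cry1 difference had the other sign without the TERT(Low) library of mouse 2 (0.26). Cry2 had 14.3, 23.1 and 16.7 CPM in TERT(High), against 13.6, 22.9 and 11.9 CPM in TERT(Low). Mouse 2 was highest in both populations, the groups overlapped, and the log2 fold change was 0.16 with an SE of 0.30 (adjusted p = 0.756), or -0.08 without the TERT(High) library of mouse 2 and -0.01 without the TERT(Low) library of mouse 3. Cry1 lies at chr10:85131700-85185054 and Cry2 at chr2:92403646-92434085, where D930015M05Rik overlaps it with at most 83 counts in a library.

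Dbp, an output factor that the CLOCK and ARNTL pair drives directly, had 29.4, 2.82 and 3.98 CPM in TERT(High), against 30.2, 2.18 and 5.77 CPM in TERT(Low) (1802, 171 and 232 counts in TERT(High), against 2215, 114 and 304 counts in TERT(Low)). Both libraries of mouse 1 were far above the other 4, mouse 2 was lowest in both populations, and the group means were close, with TERT(High) at 12.1 ± 15.0 CPM and TERT(Low) at 12.7 ± 15.2 CPM (SD, n = 3 each). Between populations the log2 fold change was -0.08 with an SE of 1.18 (edgeR adjusted p = 0.974), and its sign depended on the setting. It was -1.97 without the TERT(High) library of mouse 1 and 1.60 without the TERT(Low) library of mouse 1, -1.05 with limma-voom, 0.13 with library totals alone and 0.42 with the length and GC correction, and no fit called it. Dbp lies at chr7:45705100-45710203 and shares 741 bases with Sphk2, a sphingosine kinase gene. Sphk2 had 25.5, 27.5 and 16.7 CPM in TERT(High), against 26.9, 20.0 and 15.1 CPM in TERT(Low), and its highest library was that of TERT(High) cells from mouse 2.

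Tef, a PAR bZIP factor related to DBP, was the most abundant of the 10 genes. It had 81.5, 46.3 and 53.4 CPM in TERT(High), against 113.7, 38.1 and 73.2 CPM in TERT(Low). The order of the mice was that of Dbp, with mouse 1 highest and mouse 2 lowest in both populations, over a narrower range. In edgeR its log2 fold change was -0.31 (SE 0.41, adjusted p = 0.660) and turned to 0.12 without the TERT(Low) library of mouse 1. Tef lies at chr15:81802673-81826863.

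Levels between genes were compared per length, as the mean TMM-scaled CPM over all 6 libraries per kilobase of transcript. The order was Tef at 16.6, Cry1 at 6.78, Dbp at 6.74, Cry2 at 4.29, Arntl at 3.37, Per2 at 1.46, Clock and Per1 at 1.17 each, Per3 at 0.443 and Npas2 at 0.129 CPM per kilobase. For each pair of neighbours in this order the ranges over the 6 libraries overlapped, so the order of neighbours is not resolved beyond the spread. Within each library the ratio of Dbp to Arntl, per length, was, in mice 1, 2 and 3, 21.2, 0.218 and 0.669 in TERT(High), against 29.7, 0.187 and 1.36 in TERT(Low). Dbp was thus far above Arntl in mouse 1 and below it in mouse 2, in both populations. The ratio of Cry1 to Per1 was 2.30, 5.68 and 4.21 in TERT(High), against 2.49, 15.1 and 20.8 in TERT(Low), lowest in mouse 1 in both.

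**Figure D2:**
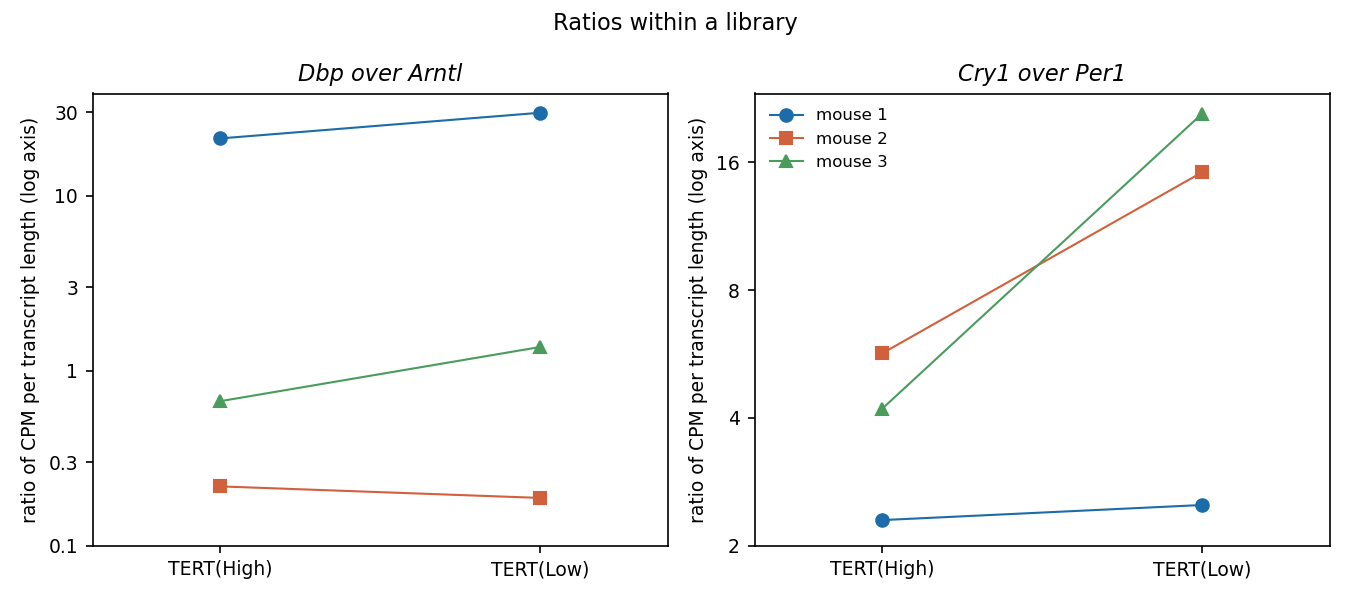
Ratio of CPM per transcript length within each library for Dbp over Arntl (left) and Cry1 over Per1 (right), on log axes, with TERT(High) left of TERT(Low) and a line for each mouse. The Dbp to Arntl ratio lies above 20 in both libraries of mouse 1 and below 1 in both libraries of mouse 2.

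The mouse as a block left the fold changes near those of the fit on group alone and narrowed the errors of the genes that followed the mouse. The SE of the log2 fold change was 0.16 for Arntl and 0.21 for Dbp with the block, and their log2 fold changes were 0.36 (edgeR adjusted p = 0.187) and -0.07 (adjusted p = 0.827).

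**Figure D3:**
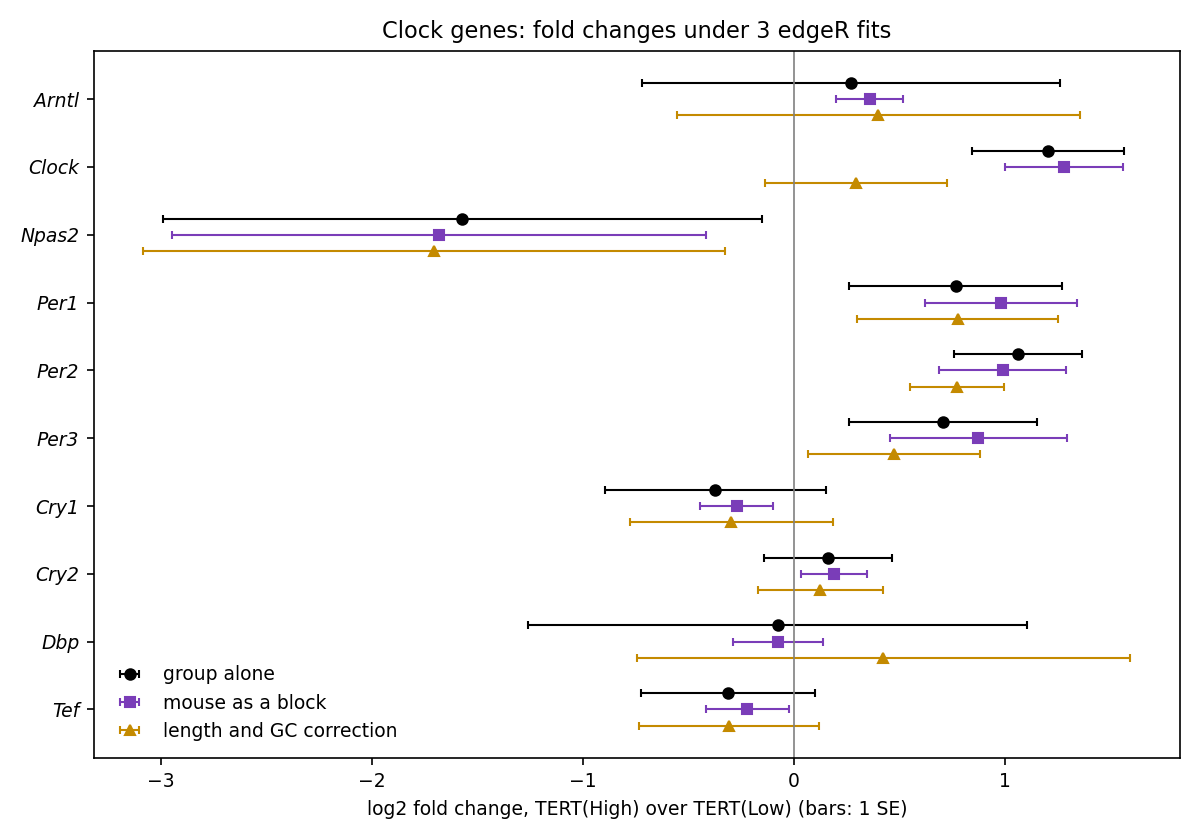
Log2 fold change, TERT(High) over TERT(Low), of the 10 clock genes in 3 edgeR fits: group alone (black circles), the mouse as a block (purple squares) and the length and GC correction (ochre triangles), with bars of 1 SE. The bars of Arntl and Dbp are wide with group alone and shrink with the mouse as a block, and the Clock value is nearest 0 with the correction.

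Because the mice differed so much in these values, the difference between mice was tested as well, a choice made after the values were seen. With the population in the model, the edgeR test of the mouse called 0 of the 10 clock genes and 0 of 13288 genes (0%), with a smallest adjusted p of 0.114, which Arntl and Dbp both had. At an unadjusted p under 0.05 it picked 5 of the 10, against 13.3% of all genes. The edgeR p was 4.79e-05 for Arntl, 7.74e-05 for Dbp, 0.0020 for Cry1, 0.0119 for Tef and 0.0192 for Cry2, before adjustment. The likelihood ratio test of DESeq2 called 4 of the 10 (Arntl, Dbp, Cry1 and Tef), against 6.85% of the 13030 genes it gave an adjusted p. The limma-voom test called 0 of 13288 genes. Without the TERT(High) library of mouse 1 the edgeR test called 5 of the 10 and 1751 genes in all, and without the TERT(Low) library of mouse 1 it called 3 of the 10 and 1980 genes in all. The mouse here stands for everything that a mouse's libraries share, from the animal to its preparation, and these cannot be told apart.

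Both libraries of 1 mouse stood above or below the other 4 libraries for 6 of the 10 genes (Arntl, Npas2, Cry1, Cry2, Dbp and Tef), against 33.8% of all genes. The order of the 3 mice was the same in both populations for 5 of the 10 (Arntl, Per1, Cry1, Dbp and Tef), against 25.4% of all genes. Arntl and Cry1 were lowest in mouse 1 and highest in mouse 2. Dbp and Tef were the other way round, highest in mouse 1 and lowest in mouse 2. The mean of a mouse's libraries spanned 12.0-fold between mice for Dbp and 10.3-fold for Arntl, and these genes ranked 28 and 32 by that range among 7439 genes with a mean of at least 5 CPM, whose median range was 1.31-fold. Cry1 ranked 203, Per1 297, Tef 384, Clock 1112, Cry2 1296 and Per2 3566. Macrophage and Kupffer cell markers also differed between mice. All 8 had an unadjusted p under 0.05 in the edgeR test of the mouse, against 13.3% of all genes. Cd5l and Clec4f, the most abundant of them, averaged 11.2 and 9.58 CPM in TERT(High), against 9.16 and 3.82 CPM in TERT(Low). Those markers were high in mouse 3. The immediate early genes differed between mice as well. Of the 16 tested, 7 had an unadjusted p under 0.05 in the edgeR test of the mouse, and 0 passed after adjustment. Their median log2 range between mice was 1.31, where that of all genes tested was 0.49. The part of either list in the differences of the clock genes between mice was not tested.

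The share of each gene's sum of squares over log2 CPM that lay between mice was 98.5% for Dbp, 98.0% for Arntl, 91.8% for Cry1, 84.8% for both Cry2 and Tef, 51.2% for Npas2, 45.7% for Per1, 30.01% for Per3, 20.3% for Clock and 8.74% for Per2. Clock and Per2 had 68.0% and 68.5% of theirs between populations. Over the 10 genes the medians were 68.0% between mice and 13.5% between populations, and over all genes tested they were 36.5% and 33.1%. A high share between mice was not particular to the clock genes. The medians were 71.9% and 4.65% for the immediate early genes, and 82.1% and 7.97% for the macrophage and Kupffer cell markers. For the hepatocyte markers they were 30.5% and 53.4%, and for the endothelial markers 14.5% and 73.1%.

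**Figure D4:**
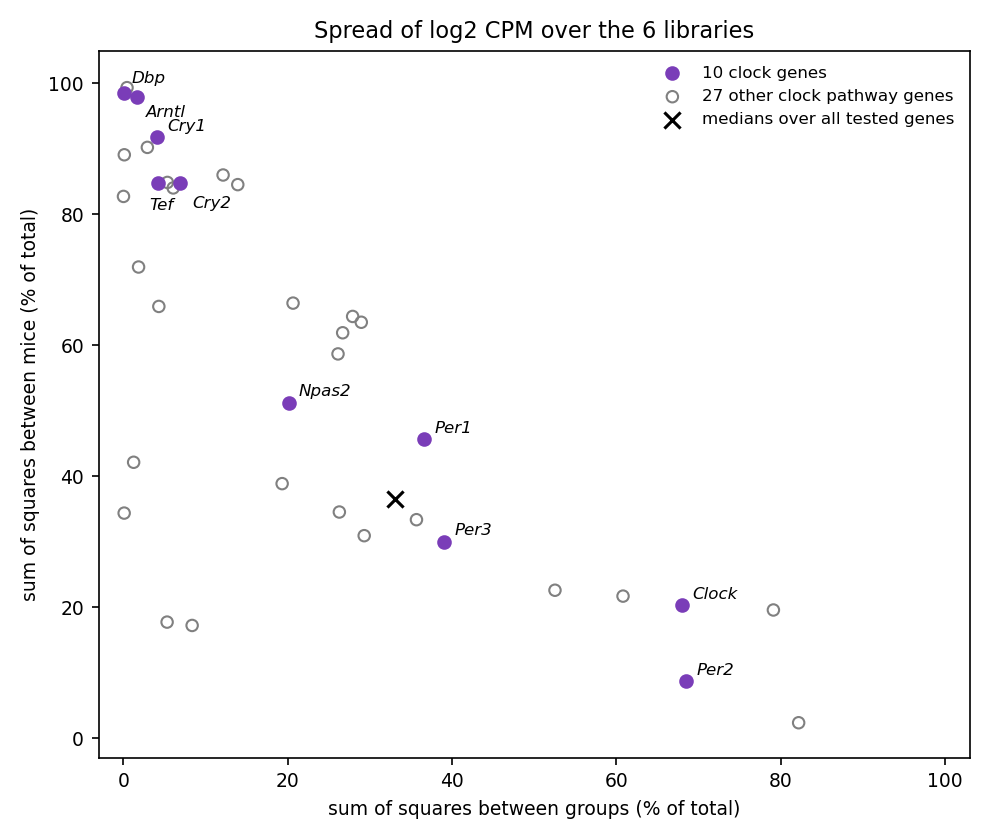
Share of the sum of squares of log2 CPM between populations (horizontal axis, % of the total) and between mice (vertical axis, % of the total) for the 10 clock genes (filled points), 27 other clock pathway genes (open points) and, as a cross, the medians over all tested genes. Dbp, Arntl, Cry1, Cry2 and Tef sit at the upper left above 84% between mice, and Clock and Per2 at the lower right.

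The other genes of the pathway were read from a list of 27, which held the nuclear receptor loop, further PAR bZIP factors and their repressor, E-box repressors, kinases, ubiquitin ligases and cyclic outputs. All 27 were tested, and 1 passed the edgeR test between populations, higher in TERT(High), where 4.43% of all genes were called higher. That gene was Rora, whose product activates Arntl through the ROR element, at 35.0, 22.2 and 31.5 CPM in TERT(High), against 8.54, 14.1 and 13.4 CPM in TERT(Low). The groups did not overlap, and the log2 fold change was 1.30 (SE 0.26, adjusted p = 0.0376). Rora is longer still than Clock, with a transcript of 10878 nt, and the length and GC correction left a log2 fold change of 0.40 (adjusted p = 0.613). DESeq2 (adjusted p = 0.00031) and limma-voom (adjusted p = 0.0194) called it as well. With the mouse as a block the log2 fold change of Rora kept its size, at 1.30 (SE 0.29), and edgeR's adjusted p was 0.0544. The call was also lost without any 1 library. With the block Gsk3b, a kinase that phosphorylates clock proteins and was named after its values were seen, was called (0.71, adjusted p = 0.0450). The median log2 fold change of the 27 was 0.19.

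Nr1d1 and Nr1d2, which encode the REV-ERB receptors that silence Arntl, were highest in mouse 1, as Dbp was. Nr1d1 had 7.17, 1.98 and 1.61 CPM in TERT(High), against 5.45, 0.878 and 0.854 CPM in TERT(Low), highest in mouse 1 in both. Nr1d2 had 38.7, 11.1 and 12.9 CPM in TERT(High), against 17.2, 2.12 and 10.3 CPM in TERT(Low), again highest in mouse 1 and with its lowest library in mouse 2. Nfil3, a repressor that competes for the D-boxes bound by DBP and TEF, ran the other way, at 13.1, 34.6 and 24.6 CPM in TERT(High), against 14.9, 26.4 and 17.0 CPM in TERT(Low). It was highest in mouse 2 and lowest in mouse 1, as Arntl was. Ciart, a repressor of the CLOCK and ARNTL pair, had 3.44, 0.528 and 1.08 CPM in TERT(High), against 3.01, 1.76 and 0.664 CPM in TERT(Low), highest in mouse 1. The PAR bZIP gene Hlf had 51.8, 28.5 and 28.2 CPM in TERT(High), against 25.3, 28.6 and 22.0 CPM in TERT(Low), so its high value in mouse 1 was seen in the TERT(High) library and not in the TERT(Low) library. The E-box repressor genes Bhlhe40 and Bhlhe41 and the casein kinase genes Csnk1d and Csnk1e, whose products phosphorylate PER proteins, had log2 fold changes of -0.16, 0.34, 0.24 and 0.01, and none passed the test. Nr1d1 and Nr1d2 were higher in TERT(High) within each mouse, as 28.2% of all genes were. Their log2 fold changes were 0.57 (SE 0.91, edgeR adjusted p = 0.711) and 1.08 (SE 0.79, adjusted p = 0.428). With the mouse as a block they were 0.81 (edgeR adjusted p = 0.0886) and 1.26 (adjusted p = 0.106). Over all 27 genes, 7 kept the order of the mice in both populations (25.9%, against 25.4% of all genes). Both libraries of 1 mouse stood above or below the other 4 libraries for 14 of the 27 (51.9%, against 33.8% of all genes). In the edgeR test of the mouse 10 of the 27 had an unadjusted p under 0.05, where 13.3% of all genes did, and 0 passed after adjustment.

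**Figure D5:**
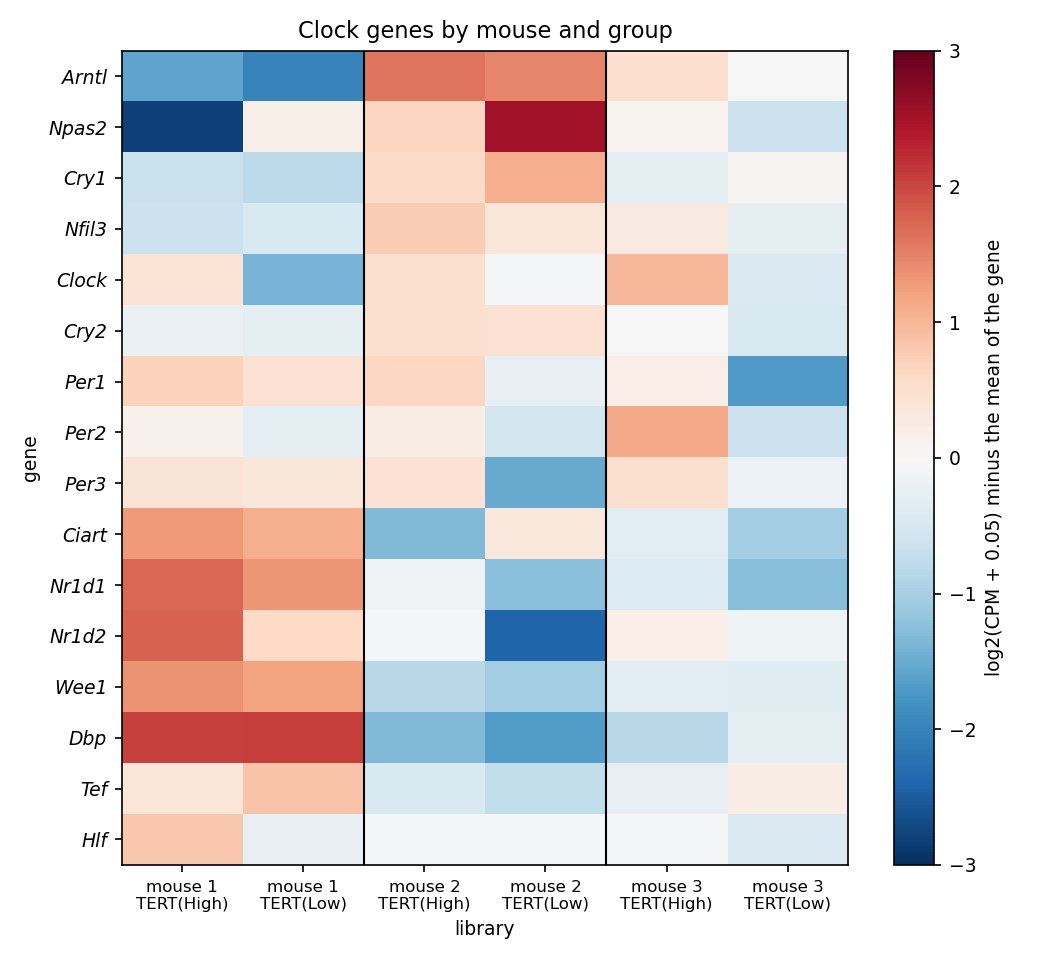
Log2 CPM of the 10 clock genes and 6 of the other pathway genes, centred on the mean of each gene, with a column for each library ordered by mouse and, within a mouse, TERT(High) left of TERT(Low). Red is above and blue below the mean of the gene; Arntl and Cry1 are blue in both libraries of mouse 1 and red in both of mouse 2, and Dbp, Nr1d1 and Wee1 are red in both libraries of mouse 1.

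The genes most like Dbp and Arntl over the 6 libraries were found by the root mean square difference of centred log2 CPM among 7193 candidate genes, those with a mean of at least 5 CPM after unnamed gene models were left out. For Dbp they were Pcsk4 (0.27), Serpina7 (0.45) and Wee1 (0.60). Pcsk4 had 13.6, 1.57 and 2.90 CPM in TERT(High), against 15.7, 1.03 and 4.29 CPM in TERT(Low). Wee1, the gene of a kinase that restrains entry into mitosis, had 14.6, 3.20 and 4.51 CPM in TERT(High), against 13.2, 2.77 and 4.46 CPM in TERT(Low), and 99.4% of its sum of squares lay between mice. For Arntl they were Lrfn3 (0.47), Bhmt (0.50) and Slc34a2 (0.51). Bhmt, which encodes the betaine-homocysteine methyltransferase of liver, had 315, 1627 and 889 CPM in TERT(High), against 306, 1266 and 826 CPM in TERT(Low). The genes were picked for their likeness over these libraries, which share mice, and it is a description.

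The authors' deposited table, which holds 9 of the 10 clock genes and does not list Npas2, called 29.2% of its genes. The authors' deposited table gave Clock a log2 fold change of 1.11 with an adjusted p of 0.000558, Per2 0.86 with 0.0118 and Per1 0.79 with 0.0465. For Dbp the authors' deposited table gave -0.11 with a standard error of 0.25, and for Arntl 0.32 with 0.23. These errors lay nearer those of edgeR with the mouse as a block (0.21 and 0.16) than with group alone (1.18 and 0.99). Whether the authors' model held the mouse was not tested.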

How the data were processed

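Sorted hepatocytes of 3 mice gave 6 libraries, prepared with the KAPA Stranded mRNA-Seq kit, per the labels' protocols. The submitters' processing notes name mm10, Trim Galore 0.4.0, TopHat2 2.0.13 and, without a version, DESeq2. How reads were counted, on which strand and with which annotation is not given in the sources used here, so reads of overlapping genes such as Dbp and Sphk2 are uncertain. The authors deposited unscaled counts, with columns named for the Tert population and the mouse, per the file headers. The authors' deposited table of results holds a signal column (baseMean, scaled mean count), a log2 fold change with its error, a linear fold change, a score (the test statistic) and p-value columns, all on TERT(High) relative to TERT(Low) as the counts show. No deposited column was left unmapped (0 columns).

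Counts were tested with edgeR 4.0.16 in R 4.3.3 (group alone, filterByExpr, TMM scaling, robust quasi-likelihood fit, Benjamini-Hochberg adjusted p under 0.05 over 13288 genes), with biological coefficient of variation 40.7%. The SE of a log2 fold change is its size over the root of the F statistic. CPM values are scaled by TMM. Alternatives were other scalings and filters, DESeq2 1.42.0, limma-voom (limma 3.58.1) with sample weights, a block for the mouse, natural-spline trends on transcript length and GC content, an adjusted p under 0.1 and each library or mouse left out. The test of the mouse, with its alternatives and left-out libraries, was added after the values were seen. edgeR was tested on simulated data with a fixed dispersion lower than that of these data. For the test between populations the simulation held no difference between mice, so it does not show how the tests perform here. The labels pair the populations by mouse. Deviations from the group means correlated at -0.12, 0.77 and 0.67 within mice 1, 2 and 3. The unblocked p-values treat the libraries as independent.

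The 10 genes and all lists were chosen with earlier results of these data known. Named are all 10, those of the 27 other pathway genes that passed or belong to the nuclear receptor loop, Hlf, Nfil3, Bhlhe40, Bhlhe41, Ciart, Csnk1d and Csnk1e, and the 3 genes most like Dbp and Arntl, and of the marker lists the 2 most abundant members, not all of which are given. Kdr and Lyve1 were named after their values were seen. Some items are not reported here. Coordinates and promoters are from RefSeq GRCm38.p6, and transcript lengths from GENCODE M21 for 93.0% of genes. The hepatocyte, endothelial, macrophage and Kupffer, stellate and fibroblast markers are given in the report. Neutrophil markers summed to 1.34 to 5.37 CPM in TERT(High) and 0.313 to 1.38 CPM in TERT(Low), cholangiocyte markers to 2.05 to 11.7 CPM in TERT(High) and 2.13 to 3.26 CPM in TERT(Low), and lymphocyte markers to 0.653 to 0.925 CPM in TERT(High) and 0.531 to 0.878 CPM in TERT(Low). Egr2, Ly6g, Cd8a, Ms4a1, Krt7 and Krt19 were not analysed here. Figures were drawn with matplotlib 3.10.9, numpy 2.4.6 and pandas 2.3.3 in Python 3.11.15.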

Additional observations from a re-analysis of the deposited data

How the results depend on the processing

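Of 10 clock genes, 0 were called between populations, and 2 (Clock and Per2) with DESeq2, with limma-voom and at an adjusted p under 0.1 (19.3% of genes). The same 2 were called with a stricter filter of at least 5 CPM, where 8 of the 10 were tested and 20.1% of 7463 genes were called. In each fit without a library or mouse 0 were called. With the mouse as a block 0 of the 10, 1 of the 27 other pathway genes and 1292 of all genes were called. Over all genes the count of 1081 was 647 with library totals alone, 2784 with DESeq2, 2477 with limma-voom, 0 with the length and GC correction, 549 with that correction and the block, 2559 at an adjusted p under 0.1, and 0 to 1650 with a library or mouse left out. Of the 27 other pathway genes, 1 was called, and 3 with the stricter filter (18 tested), with DESeq2 (25 given an adjusted p) or at an adjusted p under 0.1. With the correction, with or without the block, 0 were called, and 0 in each fit with a library or mouse left out.

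The test of the mouse called 0 genes in all, 88 with the stricter filter, 893 with DESeq2, 138 with the correction and 0 to 1980 with a library or mouse left out. Of the 10 clock genes it called 0, 2 with the stricter filter (8 tested), 4 with DESeq2, 2 with the correction and 0 to 5 with a library or mouse left out. Of the 27 other genes it called 0, 8 with DESeq2 (26 given an adjusted p), 2 with the correction and 0 to 10 with a library or mouse left out. The cause of these shifts was not tested. For all 10 clock genes and all 4 other scalings tried, the log2 range between mice changed by less than the SD within mice. That SD is taken between the TERT(High) and TERT(Low) libraries of a mouse, so it holds the difference between populations and is a wide limit. It was 0.98 for Clock and 0.81 for Per2, larger than their ranges of 0.77 and 0.41. For Arntl the SE of the log2 fold change was 0.99 with the group alone and 0.16 with the mouse as a block. The median log2 fold change over all genes was -0.01 with TMM and 0.14 with library totals alone, and that of the clock genes 0.22 and 0.33.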

Other observations

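Among the cyclic outputs of the liver clock in the list of other pathway genes, Alas1, which encodes the rate-limiting enzyme of heme synthesis, had 483, 233 and 408 CPM in TERT(High), against 586, 142 and 283 CPM in TERT(Low), with mouse 1 highest and mouse 2 lowest in both populations, the order of Dbp and Tef. Nampt, the enzyme of NAD salvage, had 109, 49.4 and 70.7 CPM in TERT(High), against 58.8, 32.1 and 62.7 CPM in TERT(Low), with its lowest library in mouse 2 in each population. Por, the electron donor of the cytochromes P450, had 619, 695 and 406 CPM in TERT(High), against 790, 589 and 396 CPM in TERT(Low), lowest in mouse 3 in both. Lpin1, a phosphatidate phosphatase gene, had 30.8, 77.8 and 29.9 CPM in TERT(High), against 22.5, 17.5 and 12.3 CPM in TERT(Low), and the groups did not overlap (log2 fold change 1.40, SE 0.44, edgeR adjusted p = 0.0918). These 4 genes were picked after their values were seen.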
